A study of Mus musculus with 9 samples.

Results

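Mbp, Mobp, Mog, Mag, Cnp, Cldn11, Mal, Opalin and Ermn encode proteins of the myelin sheath or of the mature oligodendrocyte that makes it. They were taken by gene symbol, and 9 of 9 were found among the 40879 symbols of the count table. All of these 9 passed the filter on low counts that left 15351 symbols for testing. Spinal cord of wild-type mice was profiled by sequencing the 3′ ends of messenger RNA, in 3 groups of 3 libraries. The first group came from naive mice. Both remaining groups carried experimental autoimmune encephalomyelitis (EAE), in which an immune response directed at myelin inflames the cord. Of these, the first received vehicle and the other the telomerase peptide GV1001. Strain, age, dose, immunising antigen and day of sampling are not given in the labels. Nor do they tell if replicates were separate animals, so p-values measure only the spread between these samples.

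Oligodendrocytes wrap axons of the central nervous system in sheets of membrane. The sheets are then pressed together, so that compact layers alternate with cytoplasmic channels, and the innermost layer is held to the axon by adhesion proteins. In EAE, myelin is both the target of the immune response and among the structures lost, and new sheaths can later be laid down by oligodendrocytes that arise from precursor cells. Transcripts of these genes in cord tissue come mostly from mature oligodendrocytes. Schwann cells, which make the myelin of the nerve roots, also express Mbp, Mag, Cnp and Mal. In bulk tissue, fewer oligodendrocytes and less RNA per oligodendrocyte cannot be told apart.

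Levels are given as CPM, read counts scaled to a common library size by the TMM method, with factors from 0.975 to 1.03 over totals of 5247246 to 6174870 counts. Summed markers of other cells differed between libraries. Myeloid markers (15 genes) summed to between 379 and 462 CPM in naive libraries, to 8717, 1095 and 2903 CPM in vehicle replicates 1 to 3, and to 521, 2729 and 875 CPM in GV1001 replicates 1 to 3. Schwann cell markers (11 genes) ranged from 872 to 1431 CPM in naive, from 480 to 2313 CPM in vehicle and from 2323 to 3396 CPM in GV1001 libraries, skeletal muscle markers (10 genes) from 27.3 to 255, from 20.3 to 511 and from 465 to 4889.6 CPM, and neuron markers (12 genes) from 9061 to 9298, from 6422 to 8686 and from 7541 to 8646 CPM. Astrocyte markers (8 genes) summed to 5345 to 5696 CPM in the naive group, 6097 to 6694 CPM with vehicle and 5419 to 5749.9 CPM with GV1001. Mitochondrially encoded transcripts summed to 37837 to 42778 CPM in naive libraries, to 32038, 39865 and 31668 CPM in vehicle replicates 1 to 3 and to 36286 to 42047 CPM with GV1001. The part of these cell types and transcripts in the myelin values was not tested. Red blood cell markers summed to 4789 CPM in vehicle replicate 2 and to at most 705 CPM elsewhere. Of the myeloid, Schwann cell, skeletal muscle, neuron, astrocyte and red blood cell markers, 0 were at a count of 0 in any library. Of the 13 mitochondrially encoded transcripts, 5 were at a count of 0 in naive replicate 1 and 6 in every other library.

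How far myelin transcripts differ between diseased and healthy cord was read first from the vehicle and naive groups. Mean levels of 8 of the 9 genes were below naive, with fitted differences from −12.5% for Mobp to −28.7% for Opalin, whereas Cldn11 was 12.2% above naive (a negative log2 fold change was found for 50.5% of all tested genes). In edgeR's quasi-likelihood test with Benjamini-Hochberg adjustment over all 15351 genes, 0 of 9 passed the threshold of 0.05, with adjusted p from 0.107 for Ermn to 0.577 for Cldn11. Only 0.0195% of all tested genes passed. DESeq2, run without the filter on low counts and calling 1104 genes in all, and limma-voom, which called 0, also called 0 of the 9. At an unadjusted p below 0.05, edgeR had 5 of 9 (Mag, Cnp, Mal, Opalin and Ermn), all lower, where 8.07% of all tested genes were lower at that level. The median log2 fold change of the 9 was −0.29, against −0.0047 over all tested genes and −0.08 over the 1985 genes with a mean of at least 100 CPM. For 6 of the 9, every vehicle library was below every naive library, as was true of 11.7% of all tested genes and of 23.6% of those at 100 CPM or more.

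**Figure D1:**
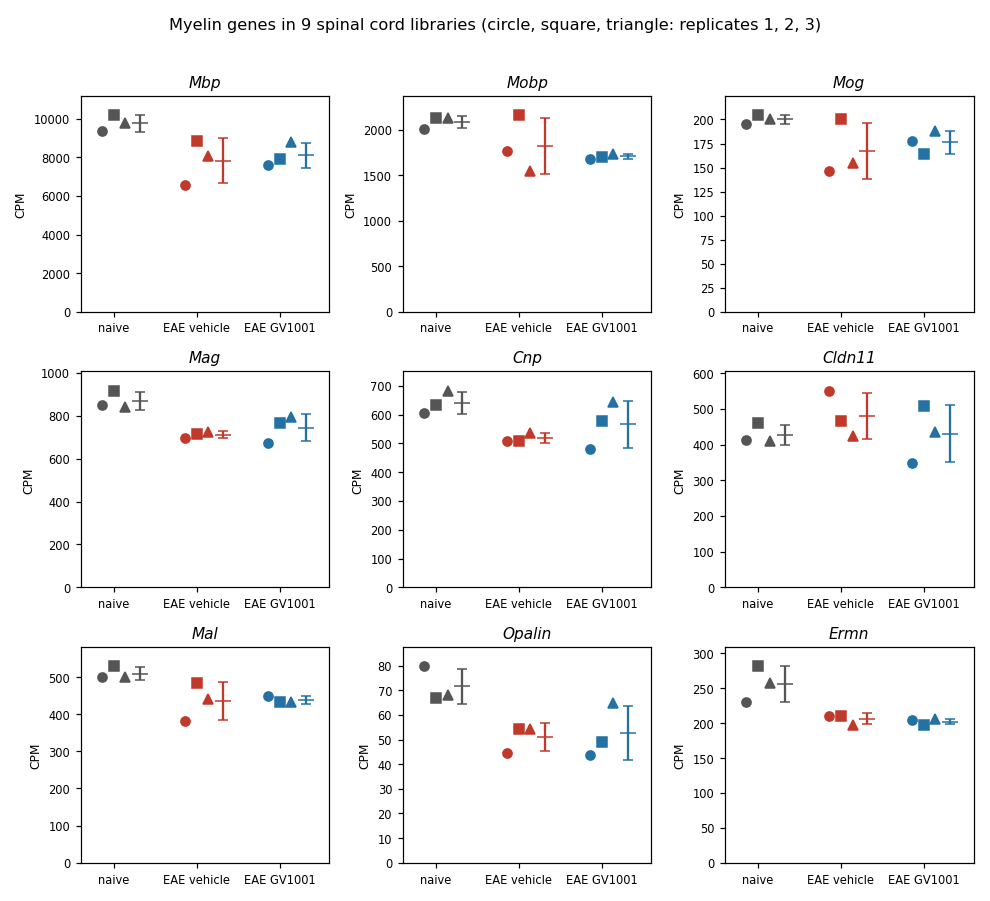
Level of each of the 9 myelin genes in every library, in CPM on axes that start at 0. Circles, squares and triangles are replicates 1, 2 and 3, and the bar beside each group is the mean with its SD (n = 3). Cldn11 is the gene whose vehicle mean lies above its naive mean, at 479.6 against 428 CPM.

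Mbp and Mobp encode small basic proteins that hold the cytoplasmic faces of the compact membrane together. Mbp was at 9335, 10170.1 and 9751 CPM in naive replicates 1 to 3, at 6549, 8851 and 8065 CPM in the vehicle replicates, and at 7586, 7893 and 8806 CPM in the GV1001 replicates. Every diseased library was thus below the lowest naive one, and vehicle replicate 1 was the lowest of all. Its log2 fold change in vehicle against naive was −0.32 ± 0.15 (SE), with a 95% interval from −0.64 to 0.00 and an adjusted p of 0.265 in edgeR. Without vehicle replicate 1 it was −0.20.

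Mobp was at 2003, 2124 and 2125 CPM in naive, at 1767, 2157 and 1545 CPM in vehicle, and at 1678, 1704 and 1737 CPM in GV1001 libraries. Vehicle replicate 2 was above all naive libraries, so the groups overlapped, while the GV1001 libraries lay close together and below naive. Its difference in vehicle against naive was −0.19 ± 0.12 on the log2 scale (95% interval −0.47 to 0.08, adjusted p = 0.440 in edgeR), and −0.09 without vehicle replicate 3.

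Mog and Mag are membrane proteins of the immunoglobulin superfamily. Mog lies on the outermost surface of the sheath, where antibodies can reach it, and is a common antigen for inducing EAE. It was at 196, 204 and 200.2 CPM in naive, at 147, 200.4 and 155 CPM in vehicle, and at 177, 164 and 188 CPM in GV1001 libraries. Vehicle replicate 2 lay within the naive range and the other diseased libraries below it. The vehicle difference was −0.26 ± 0.12 on the log2 scale, with a 95% interval from −0.53 to 0.01 and an adjusted p of 0.272 in edgeR.

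Mag sits on the innermost layer, facing the axon. Its levels were 849.9, 917 and 842 CPM in naive, 696, 715 and 726 CPM in vehicle, and 673, 766 and 794 CPM in GV1001 libraries. All 6 diseased libraries were below naive, and the vehicle libraries differed little among themselves (SD 14.9 CPM, n = 3). The log2 fold change in vehicle was −0.29 ± 0.09, with a 95% interval from −0.50 to −0.08 and an adjusted p of 0.127 in edgeR.

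Cnp belongs to the parts of the sheath that are not fully compacted, and Mal to its membrane traffic. Cnp encodes an enzyme that keeps cytoplasmic channels open, and was at 607, 632 and 683 CPM in naive, 507, 509 and 537 CPM in vehicle, and 479, 576 and 642 CPM in GV1001 libraries. The vehicle libraries were all below naive (−0.31 ± 0.11, 95% interval −0.56 to −0.06, adjusted p = 0.164 in edgeR), and GV1001 replicate 3 was within the naive range. Mal, a raft protein of membrane transport, was at 499.5, 529 and 499.9 CPM in naive, 383, 485 and 441 CPM in vehicle, and 450.1, 433 and 433 CPM in GV1001 libraries. All diseased libraries were below naive on this scale, with a vehicle difference of −0.22 ± 0.10 (95% interval −0.44 to −0.01, adjusted p = 0.246 in edgeR) and −0.14 without vehicle replicate 1, but vehicle replicate 2 overlapped naive when counts were scaled by library totals alone.

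Cldn11 forms the tight junction strands that seal the layers of the sheath, and is also made by barrier cells of the meninges. It was at 412, 460.5 and 410.2 CPM in naive, at 551, 466 and 423 CPM in vehicle, and at 349, 507 and 435 CPM in GV1001 libraries. Vehicle replicates 1 and 2 and GV1001 replicate 2 were above all naive libraries, and GV1001 replicate 1 was below them. The vehicle difference was 0.17 ± 0.14 on the log2 scale (95% interval −0.15 to 0.48, adjusted p = 0.577 in edgeR), and 0.06 without vehicle replicate 1. Markers of meningeal fibroblasts and arachnoid cells (9 genes) summed to 497, 861 and 560 CPM in naive, 872, 575 and 1644 CPM in vehicle, and 925, 1469 and 1146 CPM in GV1001 libraries, with at most 1 of the 9 at a count of 0 in a library, and their part in the Cldn11 values was not tested.

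Opalin and Ermn are found mainly in mature oligodendrocytes, Opalin as a transmembrane glycoprotein and Ermn as a cytoskeletal protein that binds actin. Opalin was at 79.7, 66.9 and 68.1 CPM in naive, at 44.4, 54.1 and 54.4 CPM in vehicle, and at 43.7, 49.1 and 64.8 CPM in GV1001 libraries. It rests on the fewest counts of the 9, 231 to 440 per library, and its diseased libraries were all below naive. Its vehicle difference was −0.49 ± 0.16 on the log2 scale, with a 95% interval from −0.83 to −0.14 and an adjusted p of 0.120 in edgeR. Ermn was at 229.8, 281 and 257 CPM in naive, at 211, 210.2 and 197 CPM in vehicle, and at 204, 198 and 206 CPM in GV1001 libraries. The 6 diseased libraries spanned a narrow range below naive, and the vehicle difference was −0.31 ± 0.09 (95% interval −0.52 to −0.11, adjusted p = 0.107 in edgeR).

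**Figure D2:**
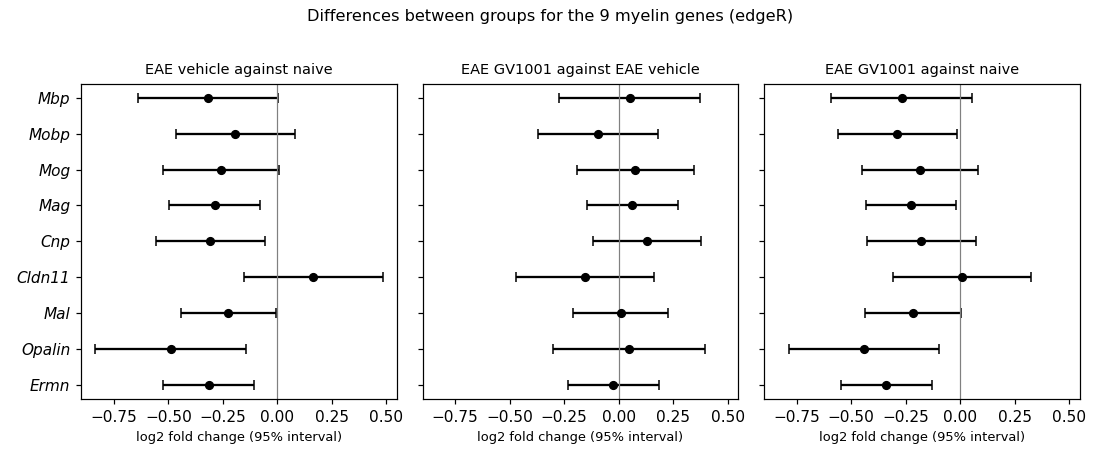
Log2 fold change of each myelin gene (point) with its 95% interval (bar) from edgeR, in each of the 3 comparisons between groups, and a line at 0 for no difference. In GV1001 against vehicle every interval crosses 0, and in vehicle against naive Cldn11 is the gene to the right of 0, at 0.17.

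Vehicle replicate 2 decided part of this comparison. It stood apart in its red blood cell markers and had the lowest myeloid sum of the vehicle libraries, and in it 6 of the 9 genes were below all naive libraries and 2, Mobp and Cldn11, above them. Without it, edgeR called 2 of the 9 lower, Mog at −0.40 (adjusted p = 0.0273) and Mobp at −0.33 (adjusted p = 0.0484), in a fit in which 10.4% of all genes were called and 2.96% were called lower. For Mog and Mobp this was the only vehicle library not below all naive libraries, so leaving it out separates their groups by construction. The part of its red blood cell and myeloid sums in its myelin values was not tested. The adjusted p of Mog ranged from 0.0273 to 0.527 over all alternative analyses, and that of Mobp from 0.0484 to 0.777.

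Library by library, the 9 genes took 1.40% to 1.52% of all counts in the naive group, against 1.05%, 1.38% and 1.25% in vehicle replicates 1 to 3 and 1.16%, 1.24% and 1.33% in GV1001 replicates 1 to 3. No diseased library reached the naive range. In vehicle replicate 1, 8 of 9 genes were below all naive libraries and Cldn11 above them, and in GV1001 replicate 1 all 9 were below. The 8 genes other than Cldn11 were on average −0.41, −0.18 and −0.32 from their naive mean (log2 CPM) in vehicle replicates 1 to 3 and −0.35, −0.29 and −0.16 in GV1001 replicates 1 to 3, so the groups given vehicle and GV1001 overlapped. The make-up of the myelin transcripts was fairly constant, with Mbp holding 64.2% to 66.4% of the counts of the 9 in 8 libraries and 60.3% in vehicle replicate 1. Cldn11 held 2.76% to 2.99% in naive libraries and 5.07% in vehicle replicate 1.

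**Figure D3:**
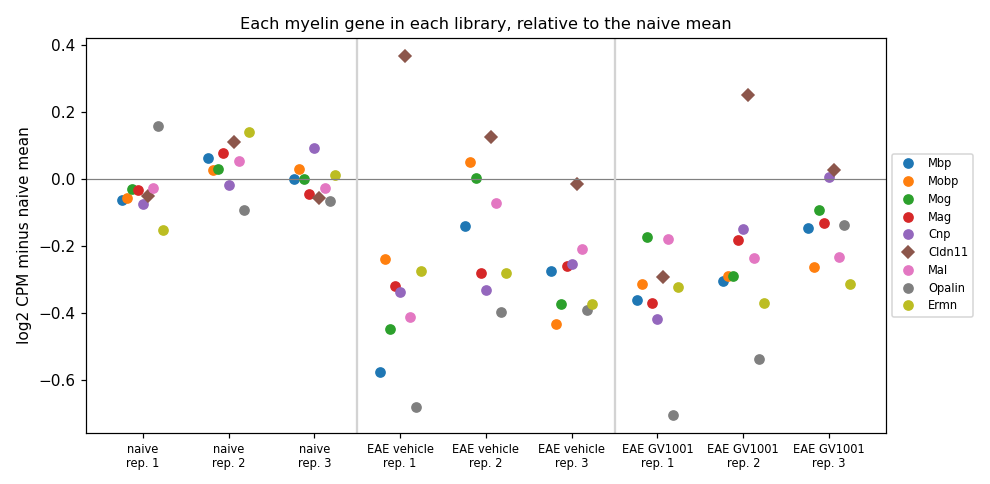
Log2 CPM of each myelin gene minus its naive mean, for each of the 9 libraries. Circles are 8 genes and diamonds are Cldn11, which is at 0.37 in vehicle replicate 1 and 0.25 in GV1001 replicate 2 while the other genes there lie below 0.

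Spread within groups was small in naive cord and larger in disease. The median SD of log2 CPM over the 9 genes was 0.07 for the naive, 0.17 for the vehicle and 0.11 for the GV1001 group, close to the medians of all genes at 100 CPM or more, which were 0.07, 0.18 and 0.13. Which gene varied most differed by group: Ermn in naive (0.15), Mobp in vehicle (0.24) and Opalin in GV1001 (0.29). Mobp, which varied most among vehicle libraries, varied least among GV1001 libraries (0.02).

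Pairs of these genes varied together across the 9 libraries, apart from those with Cldn11. As a description over libraries that share groups and scaling, Pearson's r of log2 CPM had a median of 0.73 over the 28 pairs without Cldn11 (range 0.42 to 0.92) and of −0.13 over the 8 pairs with it. The closest pairs were Mbp with Mal (0.92), Mbp with Mog (0.89) and Mag with Cnp (0.89). With group means removed, the 28 pairs ranged from −0.35 (Opalin with Ermn) to 0.82 (Mbp with Mal), with a median of 0.34, and the pairs with Cldn11 from −0.43 to 0.56, with a median of 0.08.

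Over the 9 libraries, with differences between groups included, most of these genes varied together and Cldn11 did not. With group means removed the contrast was less clear, as pairs with Cldn11 ranged from −0.43 (Mal) to 0.56 (Mag). The bases upstream of the start sites of these genes were compared. Sequences were taken from RefSeq windows of build GRCm38.p6, an earlier build than the GRCm39 of the counts, and matched by symbol for 8 of the 9 genes, all but Mbp. The 250 bases before each start were searched on either strand for 3 motifs. CTGGNAC is a loose form of the core bound by Myrf, the transcription factor that drives myelin genes. Its N admits any base, so a match need not be a sequence that Myrf binds. ACAAT is a core of Sox factors such as Sox10. The E box CANNTG is bound by Olig factors among many others. The 8 genes have 10 windows of this length, out of 32851 in all. CTGGNAC was found before 3 of the 8 genes (Cnp, Mag and Mog), in 4 of the 10 windows, and in 16.1% of all windows. ACAAT was found before 1 gene (Ermn), in 1 of the 10, and in 27.7% of all. CANNTG was found before 3 genes (Cnp, Mag and Opalin), in 4 of the 10, and in 66.2% of all. A match describes these letters and is not a binding site. The Mag, Cnp and Mog windows are shown 5′ to 3′ with matches to CTGGNAC, or to GTNCCAG from the other strand, in capitals. The Cldn11 window stands beside them and, like the windows of Mal and Mobp, holds none of the 3 motifs. A link between these motifs and the levels was not tested. Mag has further annotated starts, and 1 of its windows is shown. Its window at chr7:30914322-30914571 holds 0 matches to CTGGNAC. The window at chr7:30914923-30915172 overlaps the one shown and holds the same 2 matches. The 4 windows with CTGGNAC therefore count these Mag sites more than once.
Mag, chr7:30914864-30915113, minus strand: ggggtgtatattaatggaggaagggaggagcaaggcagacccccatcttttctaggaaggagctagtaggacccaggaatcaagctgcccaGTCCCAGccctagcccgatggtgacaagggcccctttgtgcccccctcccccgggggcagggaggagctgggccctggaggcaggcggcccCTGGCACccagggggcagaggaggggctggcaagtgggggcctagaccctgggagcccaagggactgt
Cnp, chr11:100574689-100574938, plus strand: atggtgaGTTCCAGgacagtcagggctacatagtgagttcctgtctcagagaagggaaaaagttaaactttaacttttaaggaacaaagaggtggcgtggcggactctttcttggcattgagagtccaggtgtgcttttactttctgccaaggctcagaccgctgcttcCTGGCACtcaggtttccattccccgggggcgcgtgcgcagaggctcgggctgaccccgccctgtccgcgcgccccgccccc
Mog, chr17:37023399-37023648, minus strand: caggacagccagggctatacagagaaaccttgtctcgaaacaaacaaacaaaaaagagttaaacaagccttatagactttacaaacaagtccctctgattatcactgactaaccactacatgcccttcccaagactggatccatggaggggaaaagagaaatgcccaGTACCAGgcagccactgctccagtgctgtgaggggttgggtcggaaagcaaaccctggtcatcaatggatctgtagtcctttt
Cldn11, chr3:31149670-31149919, plus strand: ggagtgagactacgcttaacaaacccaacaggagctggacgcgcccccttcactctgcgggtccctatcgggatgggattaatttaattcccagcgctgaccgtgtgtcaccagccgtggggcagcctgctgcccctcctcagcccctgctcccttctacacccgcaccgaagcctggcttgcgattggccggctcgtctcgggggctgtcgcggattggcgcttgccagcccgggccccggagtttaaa

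Whether myelin transcripts in diseased cord differ with the peptide was read from the GV1001 and vehicle groups. Differences were small, from −0.16 for Cldn11 to 0.13 for Cnp on the log2 scale, with 6 of 9 positive, while 51.4% of all tested genes were negative. The median of the 9 was 0.05, against −0.01 over all tested genes. Over the 1985 genes with a mean of at least 100 CPM it was 0.04, close to that of the 9. The groups overlapped for each of the 9, while 10.5% of all tested genes did not overlap. edgeR called 0 of 9 (smallest adjusted p 0.738, with 0 at an unadjusted p below 0.05, against 9.08% of all tested genes), DESeq2 and limma-voom also called 0, and 0.0% of all genes were called in edgeR.

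The intervals show what sizes the data allow. For Mbp the difference was 3.49%, with a 95% interval from −17.2% to 29.3%, for Mog it was 5.44% (−12.4% to 26.9%), and for Mag 4.46% (−9.55% to 20.6%). On the log2 scale the Mag interval was the narrowest of the 9 and that of Opalin, at 3.26% (−19.0% to 31.6%), the widest. Mal was at 0.592% (−13.6% to 17.1%). Cnp was at 9.35% (−8.00% to 30.0%), Mobp at −6.40% (−22.6% to 13.2%), Ermn at −1.74% (−15.0% to 13.6%) and Cldn11 at −10.3% (−28.0% to 11.8%). Without vehicle replicate 1, the signs of Mbp (−0.06 on the log2 scale), Mog (−0.01), Mal (−0.08) and Opalin (−0.04) turned, and Mobp turned to 0.03 without vehicle replicate 2; none passed the threshold. Without GV1001 replicate 3, Cnp was at 0.02 and Mag at 0.0066, and without GV1001 replicate 1 they were at 0.24 and 0.13. Cldn11 was at −0.29 without GV1001 replicate 2 and at −0.02 without GV1001 replicate 1.

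GV1001-treated EAE against naive cord asked how far myelin transcripts stood from the healthy level in treated mice. This comparison and that of vehicle with naive share the naive libraries. Levels were below naive for 8 of 9 genes, from −11.6% for Cnp to −26.4% for Opalin, with Cldn11 at 0.665%, where 49.5% of all tested genes were lower by sign. For 7 of 9 every GV1001 library was below every naive library, against 8.24% of all tested genes and 14.9% of those at 100 CPM or more. edgeR called 0 of 9, with a smallest adjusted p of 0.640 and 0.0% of all genes called, and had 4 (Mobp, Mag, Opalin and Ermn) at an unadjusted p below 0.05, all lower, against 2.95% of all tested genes. DESeq2 and limma-voom called 0 of the 9.

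Side by side, the log2 differences from naive in vehicle and in GV1001 libraries were −0.32 and −0.27 for Mbp, −0.19 and −0.29 for Mobp, and −0.26 and −0.18 for Mog. They were −0.29 and −0.22 for Mag, −0.31 and −0.18 for Cnp, and −0.22 and −0.22 for Mal. For Cnp the GV1001 value was −0.07 without GV1001 replicate 1 and −0.28 without GV1001 replicate 3. For the genes of mature oligodendrocytes they were −0.49 and −0.44 (Opalin) and −0.31 and −0.34 (Ermn), and for Cldn11 0.17 and 0.01. Ermn and Opalin, with intervals of −0.55 to −0.13 and −0.79 to −0.10 in GV1001 against naive, had the smallest unadjusted p of the 9 in this comparison (0.00443 and 0.0165 in edgeR).

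Among the 4 genes that Schwann cells also make, the median log2 fold change in GV1001 against vehicle was 0.06 (range 0.01 to 0.13), and among the 5 others −0.03 (range −0.16 to 0.08). Schwann cell markers were higher in GV1001 than in vehicle libraries on average, with 11 of 11 positive and a median of 0.91 on the log2 scale, although 0 of 11 passed the threshold in edgeR and 5 had an unadjusted p below 0.05. Their part in the values of Mbp, Mag, Cnp and Mal was not tested. In vehicle against naive, the median of these 4 was −0.30 and of the 5 others −0.26, where Schwann cell markers had a median of 0.31 with 9 of 11 positive. In GV1001 against naive, the median of these 4 was −0.22, and of the 5 others −0.29. Schwann cell markers there had a median of 1.12, with 11 of 11 positive and 0 past the threshold in edgeR.

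Other genes of the oligodendrocyte lineage were read from lists grouped by role. Of 22 genes of membrane and adhesion proteins, 16 were lower and 6 higher in vehicle than in naive cord by sign, with a median of −0.17 and 0 past the threshold in edgeR, while 8 had all vehicle libraries below naive, as had 11.7% of all tested genes and 23.6% of those at 100 CPM or more. Cntn2, an adhesion molecule found near the node of Ranvier, was at 252, 275 and 276 CPM in naive and 204, 195 and 166 CPM in vehicle libraries (−0.51 ± 0.13, adjusted p = 0.0799 in edgeR). The tetraspanin Cd9, which many other cells express, differed the other way, at 63.4, 96.7 and 68.1 against 203, 93.0 and 181 CPM (1.06 ± 0.30, adjusted p = 0.0941 in edgeR), with vehicle replicate 2 inside the naive range.

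Of 6 gap junction and channel genes, 5 were lower by sign, with 0 past the threshold. The ion cotransporter Slc12a2, also of other cells, was at 193, 202 and 209 CPM in naive, 155, 155 and 176 CPM in vehicle and 163, 177 and 193 CPM in GV1001 libraries. All vehicle libraries were below naive (−0.32 ± 0.10, adjusted p = 0.113 in edgeR).

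Of 13 tested enzymes of lipid and general metabolism, 9 were lower by sign in vehicle, with a median of −0.19 and 0 past the threshold in edgeR. Ugt8a, which makes the galactolipids of myelin, was at 155, 178 and 155 CPM in naive, 103, 131 and 126 CPM in vehicle and 135, 129 and 155 CPM in GV1001 libraries, with all vehicle libraries below naive (−0.44 ± 0.12, adjusted p = 0.0902 in edgeR). Enpp2, the secreted enzyme autotaxin, was at 537, 588 and 536 CPM in naive, 466, 443 and 394 CPM in vehicle and 432, 438 and 451 CPM in GV1001 libraries. All 6 diseased libraries were below naive, with −0.35 ± 0.09 in vehicle (adjusted p = 0.0846 in edgeR).

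Of 21 tested genes of the cytoskeleton and cytoplasm, 15 were lower by sign in vehicle than in naive cord and 0 passed the threshold. For 7 of them all vehicle libraries were below naive, as for 11.7% of all tested genes, and for 3 all were above. The 2 genes with the smallest p were higher. Apod, a lipid carrier also made by fibroblasts and astrocytes, was at 723, 789.7 and 895 CPM in naive, 2124, 1038 and 1796 CPM in vehicle and 1020.2, 1403 and 1198 CPM in GV1001 libraries (1.04 ± 0.23 in vehicle against naive, adjusted p = 0.0703 in edgeR). The stress-responsive kinase Sgk1, also of many cell types, was at 25.0, 46.2 and 45.1 CPM in naive, 207, 76.8 and 82.7 CPM in vehicle and 109, 113 and 135 CPM in GV1001 libraries (1.65 ± 0.36, adjusted p = 0.0703 in edgeR). Every diseased library was above naive for both.

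Of 12 transcription factors, 7 were lower and 5 higher by sign in vehicle, with a median of −0.05 and 0 past the threshold in edgeR. Sox8, a relative of Sox10, was at 63.4, 68.0 and 66.4 CPM in naive and 45.4, 37.9 and 46.9 CPM in vehicle libraries, which did not overlap (−0.60 ± 0.15, adjusted p = 0.0795 in edgeR). Olig1 was at −0.16 ± 0.10 (adjusted p = 0.437). Markers of oligodendrocyte precursors, 14 genes, were evenly divided, with 7 negative and 7 positive and a median of 0.0039 in vehicle against naive, and 0 passed the threshold. Their most extreme members by p were Cspg5 at 0.24 ± 0.10 (adjusted p = 0.208 in edgeR) and Ptprz1 at −0.18 ± 0.09 (adjusted p = 0.322), each also expressed by astrocytes.

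In GV1001 against vehicle, edgeR also called 0 genes in each of these 6 lists. Medians were 0.03 for membrane and adhesion, 0.03 for gap junctions and channels, 0.06 for enzymes, −0.04 for cytoskeleton and cytoplasm, −0.12 for transcription factors and −0.11 for precursors. Neuron markers had a median of −0.30 in vehicle against naive, with 12 of 12 negative and 0 past the threshold, and of 0.18 in GV1001 against vehicle, with 12 of 12 positive and 0 past the threshold. The myelin medians in the same comparisons were −0.29 and 0.05.

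Over the 6 libraries with EAE, levels of the myelin genes were set against the summed myeloid and Schwann cell markers, in 18 relations. These libraries pool vehicle and GV1001, and the permutation did not keep the groups apart. Schwann cell sums were at most 2313 CPM in vehicle and at least 2323 CPM in GV1001 libraries. Relations with them therefore cannot be told apart from treatment. Leaving out vehicle replicates 1 and 2 keeps vehicle replicate 3 and the GV1001 libraries. By Pearson's r, the largest of the 18 were those of Mog and Cldn11 with myeloid markers. Mog was lower where they were higher (Pearson's r = −0.82, exact permutation p = 0.05 two-sided, adjusted p = 0.469 over 18; Spearman's rho = −0.77, exact p = 0.103, adjusted p = 0.788), and r was −0.92 without the 2 libraries farthest from the median, vehicle replicate 1 and GV1001 replicate 1. Cldn11 was higher (r = 0.82, exact permutation p = 0.0542, adjusted p = 0.469; rho = 0.66, exact p = 0.175, adjusted p = 0.788), but r was 0.21 without those 2 libraries, so this relation rests on them. Mbp with Schwann cell markers had r = 0.75 (exact permutation p = 0.104, adjusted p = 0.469; rho = 0.26, exact p = 0.658, adjusted p = 0.987), and 0.91 without vehicle replicates 1 and 2. Mal with myeloid markers had r = −0.74 (exact permutation p = 0.0931, adjusted p = 0.469; rho = −0.60, exact p = 0.242, adjusted p = 0.870), and −0.37 without vehicle replicate 1 and GV1001 replicate 1. Mag and Cnp with Schwann cell markers each had a rho of 0.66 (exact p = 0.175, adjusted p = 0.788), with r of 0.53 (exact permutation p = 0.293, adjusted p = 0.482) and 0.52 (exact permutation p = 0.294, adjusted p = 0.482), and 0.73 and 0.83 without vehicle replicates 1 and 2. For Mbp with myeloid markers r was −0.65 (exact permutation p = 0.142, adjusted p = 0.482; rho = −0.31, exact p = 0.564, adjusted p = 0.923), and −0.97 without vehicle replicate 1 and GV1001 replicate 1. None of the 18 passed after adjustment. Relations within the vehicle or the GV1001 group, of 3 libraries each, were not computed.

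**Figure D4:**
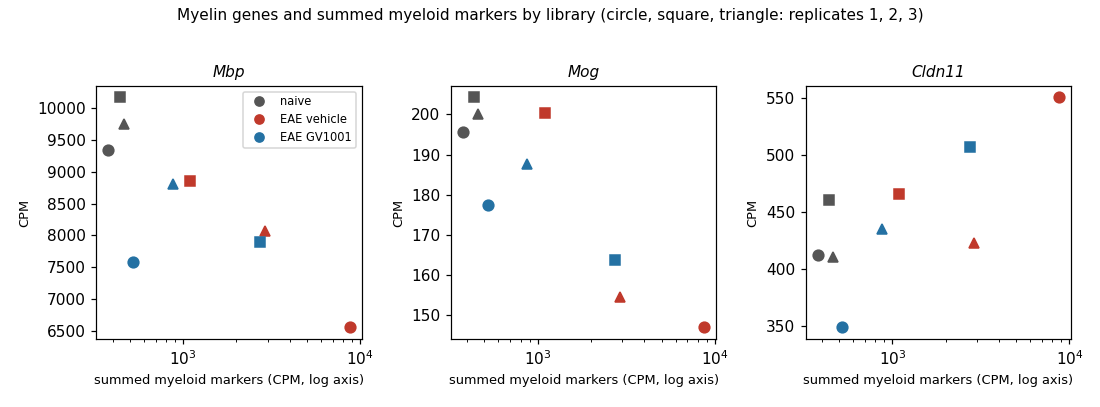
Level of Mbp, Mog and Cldn11 (CPM) against the summed myeloid markers (CPM, log axis), 1 point per library, with all 3 groups shown. Vehicle replicate 1, at 8717 CPM of myeloid markers, has the lowest Mbp and Mog and the highest Cldn11 of the 9 libraries.

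GV1001 replicate 1 had the lowest myeloid sum of the diseased libraries, 521 CPM. Its Cldn11, at 349 CPM, was the lowest of all, and its Mog, at 177 CPM, lay within the range of the other diseased libraries. Mbp was at 7586 CPM, below 4 of the other 5 libraries with EAE. Opalin at 43.7 CPM was the lowest of all on this scale. By library totals alone it was at 43.6 CPM, against 43.1 CPM in vehicle replicate 1. GV1001 replicate 1 also had the highest sum of skeletal muscle markers, 4889.6 CPM, whose part in its low values was not tested.

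The genes whose levels followed the mean of the 9 standardised profiles most closely over the 9 libraries were S100b (r = 0.97), Mapt (0.95), Gm39283 (0.95), Hoxc6 (0.95), Elavl3 (0.94) and Epn2 (0.94), as a description over libraries that share groups. S100b encodes a calcium-binding protein of glia, Mapt the microtubule-binding protein tau, Hoxc6 a positional transcription factor and Elavl3 a neuronal RNA-binding protein. Their log2 fold changes in vehicle against naive were −0.40, −0.27, −0.66, −0.37, −0.43 and −0.32 in that order, and in GV1001 against vehicle −0.0014, 0.08, −0.10, −0.02, 0.17 and 0.09. With group means removed, the closest were A930015D03Rik and Syt7 (0.98 each), Npr3, Syt5 and Dpysl5 (0.97 each) and Rgs3 (0.96), of which Syt7 and Syt5 are synaptotagmins of vesicle release. Both sets of 6 were picked as the highest r among all tested genes outside the 9. With so many genes and only 9 libraries, a high r is expected from the choice alone, and no link was tested. Gm39283, A930015D03Rik, Npr3 and Rgs3 are low, with means of 4.66, 1.93, 3.72 and 6.97 CPM.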

How the data were processed

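Per the labels, libraries were made from total RNA of spinal cord, extracted with TRIzol or a Maxwell kit, with a QuantSeq kit that reads transcript 3′ ends. Which extraction was used for which sample is not given in the sources used here, so a difference between groups in extraction is possible. The deposited values are raw counts per gene symbol. The submitters' processing notes name FastQC, STAR, HTSeq and build GRCm39. The 9 files of single libraries matched the table of all samples, and 0 pairs of libraries were identical.

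Groups were taken from sample titles. Counts were filtered by filterByExpr (minimum count 10), scaled by TMM and tested with edgeR 4.0.16 (quasi-likelihood, all 9 libraries, 1 coefficient per group) in R 4.3.3, with Benjamini-Hochberg adjustment over 15351 genes. Standard errors were derived from the F statistic. The procedure was checked on simulated counts, in which the planted changes were larger than the differences of the 9 genes. That check does not show how well differences as small as theirs are found. DESeq2 1.42.0, limma 3.58.1 (voom), other scalings, filters and fits, and leaving out each library, were alternatives. Log2 CPM used a prior count of 2. Relations used exact permutation of 720 pairings. Reads of 3′ ends were not divided by length, so no order of levels between genes is drawn.

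Named genes were the 9 members, genes past the threshold or the 2 of smallest p in each of 6 lineage lists, and the 6 closest in pattern. Some genes that this rule names are not reported here. Members and lists were chosen with earlier results of these data known. The level of 100 CPM and the motifs were set after the data were seen. Of the listed symbols, 2 had no match. Of 9 pairs of libraries with the same replicate number, 2 had correlated deviations from group means above 0.1, so numbers were not taken to pair samples.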

Additional observations from a re-analysis of the deposited data

How the results depend on the processing

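Alternatives left the count of myelin genes called at 0 in each comparison, except that leaving out single libraries gave 0 to 2 in vehicle against naive. The count over all genes in vehicle against naive, 3 in the main analysis, was 1104 in DESeq2 without the filter, 0 in limma-voom, 20 with library totals only, 543 without the filter on low counts, 0 with the replicate block, and 0 to 1652 when single libraries were left out. In GV1001 against vehicle (0) it was 13 in DESeq2 and 0 to 8 when single libraries were left out. In GV1001 against naive (0) it was 45 in DESeq2, 1 with library totals only, 1 without the filter, 5 with 2 groups in the fit, 1 with the older quasi-likelihood form, and 0 to 3 when single libraries were left out. The cause of these shifts was not tested. The replicate block changed no call among the 9 genes, and 4 of the 9 libraries correlated best with their own number.

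In vehicle against naive, the 9 genes kept their direction under all 17 alternatives, Cldn11 included. In GV1001 against vehicle, leaving out single libraries turned the sign of Mbp (range −0.064 to 0.14), Mobp (−0.21 to 0.034), Mog (−0.0094 to 0.22), Mal (−0.078 to 0.081) and Opalin (−0.14 to 0.16). In GV1001 against naive, Cldn11 was −0.0048 in limma-voom and ranged from −0.13 to 0.14 when single libraries were left out. The lowest count behind a value of the 9 genes was 231, for Opalin, and 3 libraries a group set how narrow the intervals can be.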
